A study of Mus musculus with 9 samples.

Results

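The genes of the dystrophin complex described here are Dmd, Dag1, Sgca, Sgcb, Sgcd, Sgce, Lama2 and Utrn, 8 of the 19698 named genes that were tested in mouse lung. They were chosen by name, as the core of the complex with its laminin ligand and the close relative of dystrophin. Each gene was read from its brightest probe, the one with the highest mean log2 intensity over the 9 arrays, and its other probes are given beside it.

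The study asked how lung tissue responds to a single dose of radiation given to the left lung. Male C57BL/6 mice of 10 weeks were used for both groups, and zoletil at 30 mg/kg with rompun at 10 mg/kg served as anesthesia during irradiation. The groups were 4 arrays labeled control and 5 arrays labeled irradiated, and the labels name no engineered allele in either. RNA of triplicate experiments was pooled before labeling, so each array measured a pool of animals and not a single mouse. Dose, lung region and time after irradiation are not stated for any irradiated array, and the spread within that group includes any such difference. Nothing in the labels says that pools of one group were independent, so the p-values measure only the spread between these arrays, which may be technical.

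Dystrophin, the product of Dmd, links the actin cytoskeleton below the plasma membrane to dystroglycan, the product of Dag1, whose outer part binds laminin in the basement membrane. The sarcoglycans are membrane proteins that stabilize this link, and utrophin, the product of Utrn, is a relative of dystrophin that takes its place in many cells outside muscle. In lung, the complex is known from smooth muscle of airways and vessels, from nerves and, through dystroglycan, from epithelium, and the large veins near the heart carry a sleeve of cardiac muscle.

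Start sites of these genes are shown first, since the windows of the members differ in content. Sequences of the 250 bases before a start were taken from RefSeq for GRCm38.p6, and 9 such windows were found for 7 of the 8 members. A gene can have several starts, and the windows of Utrn, Sgcd and both of Dmd precede a start that lies inside the annotated gene, downstream of its outermost start. No window was available for Sgce. Capitals mark the E-box CANNTG, the CArG box and the GC box GGGCGG, each searched on both strands. The windows below are those of Sgca and Utrn, the members with the largest differences between groups, and of Dmd, which has a start with a CArG box and another with GC boxes.
Sgca, chr11:94976328-94976577, minus strand: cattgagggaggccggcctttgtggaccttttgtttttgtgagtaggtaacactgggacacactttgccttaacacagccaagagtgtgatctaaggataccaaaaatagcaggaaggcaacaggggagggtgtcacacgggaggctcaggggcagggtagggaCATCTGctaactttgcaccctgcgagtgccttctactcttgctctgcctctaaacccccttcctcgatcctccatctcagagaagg
Utrn, chr10:12861736-12861985, minus strand: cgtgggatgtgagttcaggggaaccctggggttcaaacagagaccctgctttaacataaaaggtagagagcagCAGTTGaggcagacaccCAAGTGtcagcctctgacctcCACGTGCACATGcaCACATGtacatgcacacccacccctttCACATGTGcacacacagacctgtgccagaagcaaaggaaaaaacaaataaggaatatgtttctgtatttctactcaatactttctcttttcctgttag
Dmd first window, chrX:82948620-82948869, plus strand: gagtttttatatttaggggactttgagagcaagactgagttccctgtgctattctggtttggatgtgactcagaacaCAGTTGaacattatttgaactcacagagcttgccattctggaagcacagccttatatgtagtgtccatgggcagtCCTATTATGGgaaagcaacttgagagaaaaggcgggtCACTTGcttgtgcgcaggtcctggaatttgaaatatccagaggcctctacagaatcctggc
Dmd second window, chrX:85048045-85048294, plus strand: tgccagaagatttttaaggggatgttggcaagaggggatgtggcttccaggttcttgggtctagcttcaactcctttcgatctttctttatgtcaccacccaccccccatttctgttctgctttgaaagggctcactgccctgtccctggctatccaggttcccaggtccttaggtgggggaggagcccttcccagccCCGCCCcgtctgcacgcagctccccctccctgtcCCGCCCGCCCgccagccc
The Sgca window lies before the outermost start, and it held 1 E-box and no GC box. The Utrn window held 7 E-boxes, some of which overlap each other, and no GC box. The first Dmd window held 2 E-boxes, 1 CArG box and 1 copy of TATAAA, which lies on the other strand and is not in capitals. The second Dmd window held 3 GC boxes and no E-box. An E-box was found in 7 of the 9 windows of members and in 66.2% of all 32851 windows of this length. A CArG box was found in 2 of the 9, those of Dmd and Lama2, against 1.47% of all windows. A GC box was found in 5 of the 9, of which the 2 windows of Dag1 overlap each other, against 32.7% of all windows. TATAAA was found in 2 of the 9, those of Dmd and Sgcb, against 12.4% of all windows. These matches describe letters only, and no binding was measured.

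The 9 arrays differed in background. Spots well above background made up 72.8% to 89.1% of an array, the median local background was 24 to 45.5 intensity units, and no spot was saturated. Spots left empty in the authors' table made up 0.093% to 1.87% on control arrays 1 and 4 and irradiated arrays 2 and 5, and 9.21% to 12.8% on the other 5. On each of the 9 arrays, the 15 probes of the 8 members were all well above background. The labeled tissue was checked by its markers. The type II alveolar genes Sftpc and Sftpd and the type I genes Hopx and Clic5 were detected well above background on each array. Marker lists of muscle were read because the complex is best known there. On all 9 arrays, 15 of 20 cardiac and 7 of 14 skeletal muscle genes were well above background. The means of these lists therefore include some values that were not. The mean of 20 cardiac genes in irradiated array 1 stood at −4.89 log2 units relative to the control mean, and all 20 had their lowest value there, while the other 4 irradiated arrays lay between −0.53 and 0.35 and the controls between −0.39 and 0.35. The mean of 14 skeletal muscle genes in control array 3 lay 3.50 above the control mean, and all 14 had their highest value there. Group differences of the members that moved by over 1.5 times without irradiated array 1 or control array 3 are therefore given both ways.

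None of the 8 members passed an adjusted p of 0.05 in limma, where 82 of the 19698 genes did (0.416%). At an unadjusted p under 0.05 the count was 1 of 8, Utrn, beside 12.3% of all genes, and it was 0 without control array 2, control array 4 or irradiated array 2. Without control array 1 it was 2, Utrn and Dag1, and without irradiated array 3 the 1 was Sgca. The 4 members with a higher mean in irradiated lung were Dag1, Sgcb, Sgcd and Lama2, and the 4 with a lower mean were Sgca, Utrn, Dmd and Sgce. The median log2 difference of the 8, irradiated minus control, was −0.015, beside 0.0085 over all genes tested, and it ranged from −0.10 without control array 2 to 0.050 without control array 1. The count of 0 called was the same without irradiated array 1 and without control array 3. In whole tissue, fewer cells of a type and less RNA per cell cannot be told apart.

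**Figure D1:**
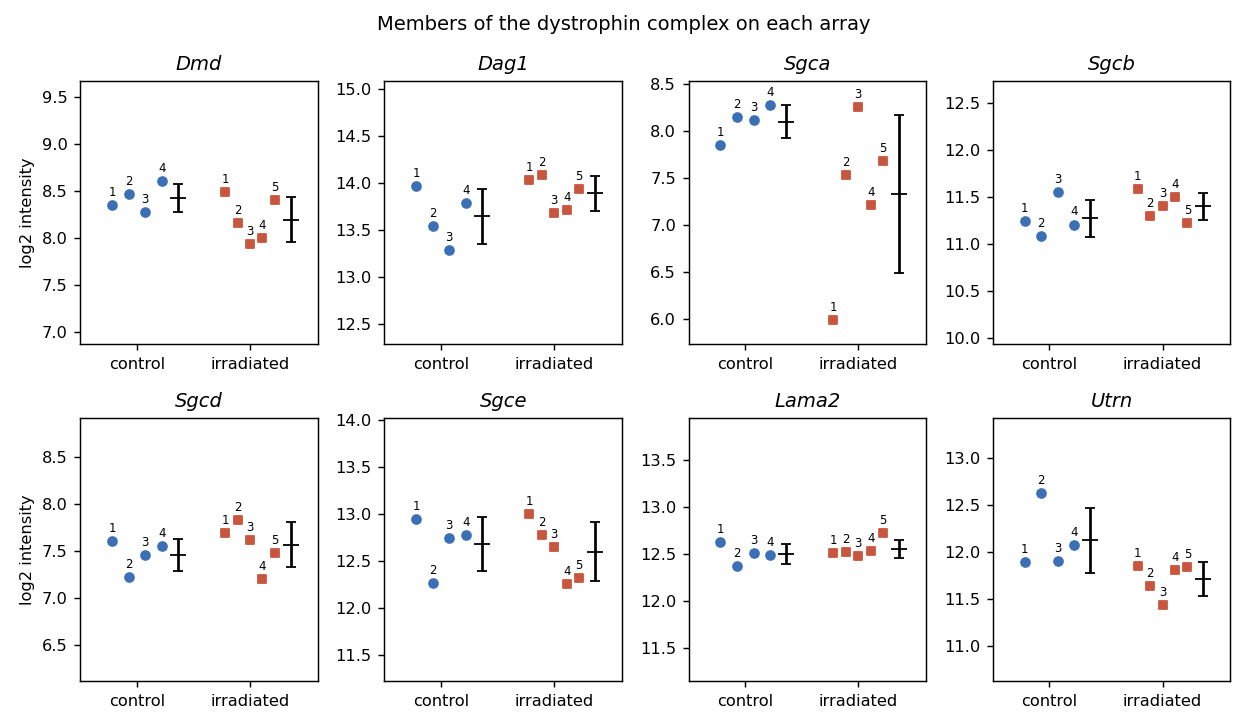
Log2 quantile-normalized intensity of the brightest probe of each member on the 4 control arrays (circles) and 5 irradiated arrays (squares). Numbers are array numbers, black marks are the group mean ± SD, and each panel spans the same log2 range around its own level. Sgca of irradiated array 1 at 6.00 is the point farthest from its group, and Utrn is the panel in which the groups do not overlap.

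Among the proteins that bind actin, dystrophin was read by 3 probes. For the brightest probe of Dmd, the log2 intensity was 8.35, 8.47, 8.27 and 8.60 on control arrays 1 to 4 and 8.48, 8.15, 7.93, 8.0 and 8.40 on irradiated arrays 1 to 5. The groups overlapped, with irradiated arrays 3 and 4 lowest, but under 75th percentile scaling all irradiated arrays lay below all controls (exact permutation p = 0.0238). That scaling moved the median of all probes to −0.074, and under it 492 of 19698 genes had all irradiated arrays below all controls. Under quantile normalization, the log2 difference of Dmd was −0.23 with a standard error of 0.16, and the adjusted p in limma was 0.724. This is a ratio of 0.853 with a 95% interval of 0.668 to 1.09. A second Dmd probe, A_55_P2167922, read 7.75, 7.96, 7.62 and 8.05 in controls and 6.95, 7.22, 7.30, 7.53 and 7.91 in irradiated lung. This probe and the remaining one had their lowest value of all arrays in irradiated array 1, where the brightest probe had the highest value of its group. Its log2 difference was −0.46 (limma adjusted p = 0.504), and that of the remaining probe, A_55_P2167913, was −0.18 (adjusted p = 0.806), or −0.11 without irradiated array 1. Without irradiated array 1, the difference of the brightest probe was −0.30 (adjusted p = 0.582).

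Utrn had the clearest separation of the 8. Its log2 intensity was 11.88, 12.62, 11.89 and 12.07 on control arrays 1 to 4 and 11.85, 11.64, 11.43, 11.81 and 11.84 on irradiated arrays 1 to 5. All irradiated arrays lay below all control arrays, as they did for 1.76% of all genes, but irradiated array 1 and control array 1 were almost equal. The groups overlapped under normexp background correction, where the exact permutation p was 0.0159, and in the authors' normalized table, where it was 0.0635. The log2 difference was −0.41 with a standard error of 0.16, a ratio of 0.755 with a 95% interval of 0.587 to 0.970. The exact two-sided permutation p was 0.00794, the smallest that 4 against 5 arrays can give, and the adjusted p over all probes in limma was 0.417. Control array 2 stood above the other controls, and without it the difference was −0.24 (adjusted p = 0.618).

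Dag1, which encodes both parts of dystroglycan, was bright on all arrays. Its single probe read 13.96, 13.54, 13.28 and 13.78 in controls and 14.03, 14.08, 13.68, 13.71 and 13.93 in irradiated lung. Irradiated arrays 1 and 2 were the highest and control arrays 2 and 3 the lowest, and the groups overlapped. The groups differed by 0.25 on the log2 scale with a standard error of 0.15, a ratio of 1.19 with a 95% interval of 0.946 to 1.48, and it did not pass the test (limma adjusted p = 0.659). It was 0.13 without control array 3 and 0.35 without control array 1, with adjusted p-values of 0.892 and 0.450. Enzymes that build the laminin-binding sugar on dystroglycan are given below.

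**Figure D2:**
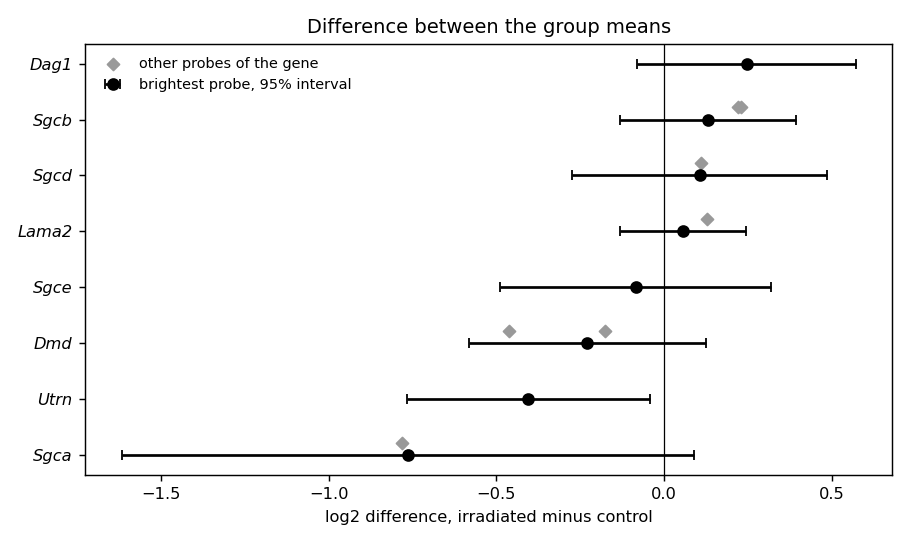
Log2 difference between group means, irradiated minus control, for the 8 members. Black points are the brightest probe with its 95% interval from limma, gray diamonds are the other probes of the gene, and the line marks no difference. The interval of Utrn lies below 0 before adjustment, that of Sgca is the widest, and the other 6 include 0 as Sgca does.

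The sarcoglycans differed among themselves. Sgca encodes the alpha subunit, which is known from striated muscle. Its brightest probe read 7.86, 8.16, 8.12 and 8.28 in controls and 6.00, 7.54, 8.26, 7.22 and 7.68 in irradiated lung. Irradiated array 1 was far below every other array, and irradiated array 3 was within the range of the controls. The log2 difference was −0.76 with a standard error of 0.38, a ratio of 0.589 with a 95% interval of 0.326 to 1.06 (limma adjusted p = 0.566). Without irradiated array 1 it was −0.42 (adjusted p = 0.595). A further probe, A_55_P2020706, is named Sgca in the later annotation of these arrays alone, and it read 9.21, 9.81, 9.85 and 9.71 in controls and 7.21, 8.92, 9.73, 9.27 and 9.21 in irradiated lung. This probe is the brighter of the pair, but the annotation used here does not name it, so it did not stand for the gene. Its pattern was like that of the other, with irradiated array 1 lowest and irradiated array 3 among the controls, and its log2 difference was −0.78 (adjusted p = 0.629), or −0.36 without irradiated array 1 (adjusted p = 0.627).

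The lowest Sgca value and the lowest level of the cardiac list fell in the same pool, irradiated array 1. Myl4 and Actc1, the brightest cardiac genes by their mean over the 9 arrays, encode a myosin light chain and the cardiac actin. Myl4 read 11.39 there against 15.28 to 16.45 in controls, and Actc1 read 13.24 against 15.66 to 16.21. Myh6, the cardiac myosin heavy chain, was brightest in controls at 15.87 to 16.98 and read 7.33 in that array, and it was named after its values were seen. The part of cardiac muscle content in the Sgca difference was not tested beyond leaving out that array. Control array 3, with its high skeletal muscle list, did not stand apart for Sgca at 8.12.

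**Figure D3:**
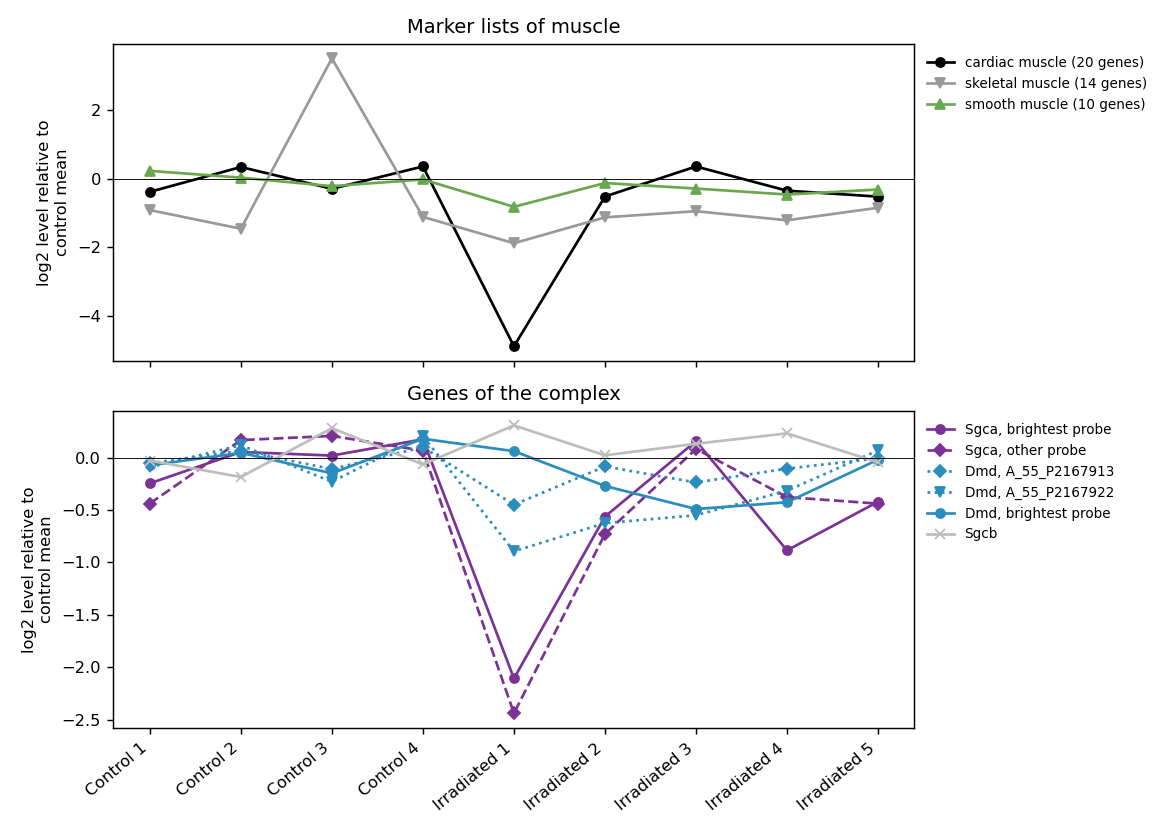
Upper panel: mean log2 level of the cardiac, skeletal and smooth muscle lists on each array relative to the control mean. Lower panel: the same scale for both Sgca probes, 3 Dmd probes and Sgcb. Irradiated array 1 is lowest for the cardiac list at −4.89 and for both Sgca probes, while the brightest Sgcb probe, though not its other probes, is highest there. Lines join arrays for reading only and mark no order.

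Sgcb, Sgcd and Sgce encode the beta, delta and epsilon subunits, which are found outside striated muscle as well. Sgcb read 11.24, 11.08, 11.55 and 11.20 in controls and 11.58, 11.29, 11.40, 11.50 and 11.22 in irradiated lung. The groups overlapped, and irradiated array 1, lowest for Sgca, was highest on this Sgcb probe, though not on the other Sgcb probes. The group means differed by 0.13 log2 units, a ratio of 1.09 with a 95% interval of 0.912 to 1.31 (limma adjusted p = 0.819). It was 0.067 without control array 2, 0.084 without irradiated array 1 and 0.22 without control array 3. Its other probes gave 0.23 and 0.22, which became 0.057 and 0.0086 without control array 2.

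Sgcd read 7.60, 7.22, 7.45 and 7.54 in controls and 7.69, 7.83, 7.61, 7.20 and 7.47 in irradiated lung. The groups overlapped over most of their range, and the log2 difference of 0.11 had a 95% interval from −0.27 to 0.49 (limma adjusted p = 0.918). It ranged from 0.028 without control array 2 to 0.20 without irradiated array 4. Another probe, A_51_P389004, gave 0.11, with a range from 0.042 without irradiated array 2 to 0.21 without irradiated array 4. The sign of neither probe was stable to scaling. When arrays were scaled to their 75th percentile, the brightest probe gave −0.047 and the other −0.080. Sgce, which can stand in for the alpha subunit in smooth muscle, read 12.95, 12.27, 12.75 and 12.78 in controls and 13.00, 12.78, 12.66, 12.25 and 12.32 in irradiated lung. Low values occurred in both groups, in control array 2 and irradiated arrays 4 and 5. The log2 difference was −0.085 with a 95% interval from −0.49 to 0.32 (limma adjusted p = 0.951). It was −0.18 without irradiated array 1, −0.22 without control array 2, 0.00040 without control array 1 and 0.0023 without irradiated array 4.

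Lama2, the alpha 2 chain of the laminin that dystroglycan binds in muscle and nerve, had the narrowest range of the 8 brightest probes. It read 12.63, 12.37, 12.50 and 12.48 in controls and 12.51, 12.51, 12.48, 12.53 and 12.72 in irradiated lung. The arrays spanned 0.36 log2 units in all, and irradiated array 5 was the highest. The difference on the log2 scale was 0.055 with a standard error of 0.084, a ratio of 1.04 with a 95% interval of 0.912 to 1.18 (limma adjusted p = 0.911). It ranged from 0.012 without irradiated array 5 to 0.10 without control array 1. Another probe, A_55_P2064328, spanned 0.62 log2 units, with control array 4 lowest at 11.67, and its difference was 0.13, or 0.018 without that array.

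Scanner coordinates placed the arrays at 3 horizontal positions, of which 2 held both groups. Within the position of control array 1 and irradiated arrays 3, 4 and 5, the log2 difference was −0.19 for Utrn, −0.24 for Dmd, −0.14 for Sgca and −0.19 for Dag1. Within the position of control arrays 2 and 3 and irradiated arrays 1 and 2, it was −0.51 for Utrn, −0.053 for Dmd, −1.37 for Sgca and 0.64 for Dag1. In the same order, the values were 0.13 and 0.12 for Sgcb, −0.17 and 0.42 for Sgcd, −0.53 and 0.38 for Sgce, and −0.050 and 0.076 for Lama2. The first of these positions has 1 control array and so no spread among controls, and no test was made within a position. With position as a block over both, the log2 difference was −0.38 for Utrn, −0.13 for Dmd, −0.84 for Sgca and 0.29 for Dag1, with limma adjusted p-values of 0.794, 0.949, 0.794 and 0.844. Each control array was also set against the irradiated array nearest to it in vertical scan offset. Utrn was lower in the irradiated array in 4 of 4 pairs, Dmd was lower in 4 of 4, and Dag1 was higher in 4 of 4. The share of all genes with 4 of 4 pairs of one sign was not counted, so these counts have no background beside them. Irradiated array 1, the highest of its group for the brightest Dmd probe, is in no pair. Sgca, Sgcb, Sgcd, Sgce and Lama2 each had pairs of both signs. With these pairs as a block, and thus without irradiated array 1, Dmd had a log2 difference of −0.30 (limma adjusted p = 0.171) and Dag1 of 0.21 (adjusted p = 0.182). Both were at an unadjusted p under 0.05, as were 8198 of all 39302 probes in the same fit. Utrn had −0.44 (adjusted p = 0.290) and no longer had an unadjusted p under 0.05. This pairing was chosen after the data were seen.

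The 3 members with the widest range over the arrays were compared with 15233 other genes for the most similar profile, by the root mean square difference of log2 values centered on each gene's mean over the 9 arrays. For Sgca, with a range of 2.28, the nearest were Bves, a membrane protein of the popeye family, at 0.182, Perm1, a regulator of mitochondrial genes, at 0.192, and Cox6a2, a subunit of cytochrome c oxidase, at 0.220. All 3 had their lowest value in irradiated array 1. For Utrn, with a range of 1.19, they were Kifc2, a kinesin, at 0.0940, Prkce, the epsilon form of protein kinase C, at 0.0953, and Ecpas, a proteasome adaptor, at 0.107. These had their highest value in control array 2, as Utrn did. For Dag1, with a range of 0.80, they were Slc35b1, a nucleotide transporter, at 0.0830, Gtpbp8, a GTP-binding protein, at 0.0835, and Mgat5, a glycosyltransferase, at 0.0866. These 9 genes are descriptions of likeness with no test.

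Other genes of the complex were read as a list of 18, with further sarcoglycans, the syntrophins and dystrobrevins that dock signaling proteins below the membrane, and partners such as desmin and dysferlin. In limma, 0 of 18 passed the adjusted threshold, and at an unadjusted p under 0.05 there were 1 higher and 2 lower, beside 7.37% of all genes higher and 4.98% lower. The median log2 difference was −0.025, and it ranged from −0.16 without control array 1 to 0.014 without control array 3.

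Sntb1, the beta 1 syntrophin, read 8.49, 8.32, 8.47 and 8.49 in controls and 7.89, 7.98, 7.90, 8.10 and 8.02 in irradiated lung. Every irradiated array was below every control array, as for 1.76% of all genes. The log2 difference was −0.47 with a standard error of 0.12 (limma adjusted p = 0.167). It was −0.33 under normexp background correction (limma adjusted p = 0.288) and −0.31 in the authors' table (limma unadjusted p = 0.209). Dysf encodes dysferlin, a protein of membrane repair that is also found in monocytes and endothelium. It read 11.36, 11.37, 11.44 and 11.29 in controls and 11.65, 11.97, 11.83, 11.91 and 11.95 in irradiated lung. All irradiated arrays were above all controls, as for 3.4% of all genes, and the log2 difference was 0.50 with a standard error of 0.089 (limma adjusted p = 0.0567). Without irradiated array 1 it was 0.55 and passed the threshold (adjusted p = 0.0216), and without control array 3 it was 0.52 (adjusted p = 0.139). In the authors' table it was 0.32 (adjusted p = 1.00).

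The 18 genes for glycosylation of dystroglycan stayed close to the median of all genes. In limma, 0 of 18 passed the adjusted threshold, 1 was higher and 0 were lower at an unadjusted p under 0.05, beside 7.37% and 4.98% of all genes, and the median log2 difference was 0.041, ranging from 0.015 without control array 2 to 0.10 without control array 4. The 1 became 0 without irradiated array 5, under normexp and in the authors' table. It was Gmppb, which makes the GDP-mannose that feeds this pathway, with a log2 difference of 0.29 and a standard error of 0.12 (adjusted p = 0.414), and 0.16 in the authors' table. Rxylt1, a xylosyltransferase of the pathway, had a difference of 0.28 (adjusted p = 0.758), which ranged from 0.18 without irradiated array 1 to 0.43 without control array 3 and was 0.17 under 75th percentile scaling.

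Most basement membrane ligands and other laminin receptors had a higher mean in irradiated lung, and none passed the adjusted threshold. Of 23 genes, 21 had a higher mean, where 51.9% of all genes did, and the median log2 difference was 0.34. In limma, 0 of 23 passed at the adjusted level, while 9 were higher and 0 lower at an unadjusted p under 0.05, beside 7.37% of all genes higher and 4.98% lower. All irradiated arrays were above all controls for 5 of the 23, beside 3.4% of all genes. The mean of the type I alveolar list, whose values are given below, was also higher in every irradiated array than in every control. The part of type I cells in these differences was not tested. The count of 9 ranged from 5 without irradiated array 2 to 10 with each array left out, and it was 4 in the authors' table. Without irradiated array 1 the higher means were 21 of 23 and the median was 0.27. Without control array 3 they were 22 of 23 and the median was 0.27 as well.

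Lama1, the laminin alpha 1 chain, read 9.15, 9.34, 9.37 and 9.55 in controls and 10.08, 9.86, 10.34, 11.09 and 11.22 in irradiated lung, without overlap. Its log2 difference of 1.17, with a standard error of 0.28, was the largest of the list (limma adjusted p = 0.138). With scan pairs as a block, and without irradiated array 1, it was 1.28 and passed the threshold (adjusted p = 0.0473). No other alternative called it. It was 0.95 in the authors' table (adjusted p = 0.370) and 1.18 without control array 3 (adjusted p = 0.300). Col4a1, a chain of type IV collagen, had a difference of 0.52 (adjusted p = 0.409), or 0.34 without control array 2. Lama2, the laminin chain among the 8 members, had 0.055 in the same fit, and whether it differed from Lama1 or Col4a1 in this was not tested.

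**Figure D4:**
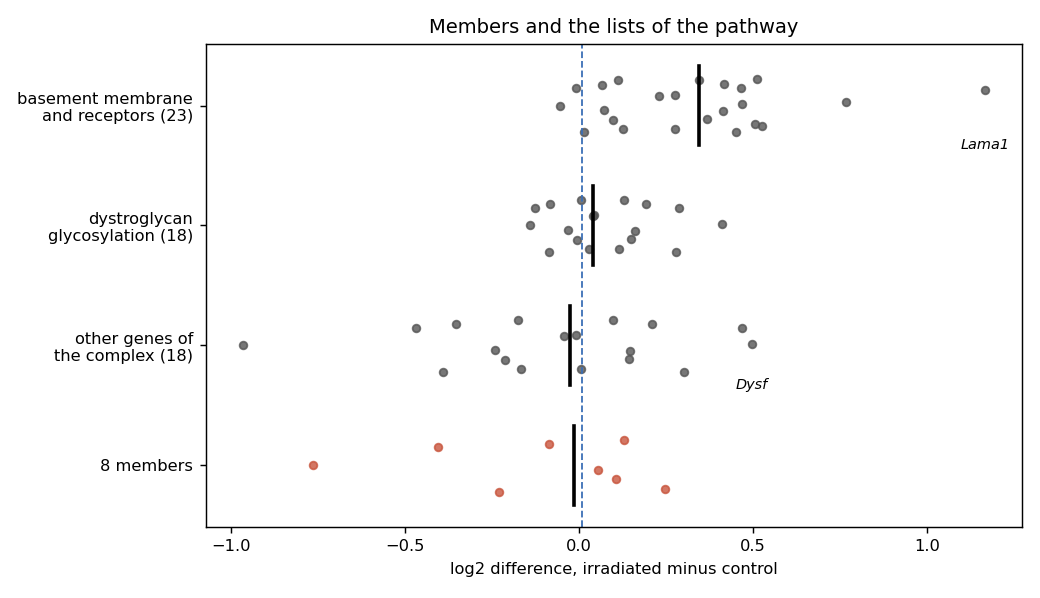
Log2 difference between group means, irradiated minus control, for the 8 members and 3 lists of the pathway, 1 point a gene. Black bars are list medians and the dashed line is the median of all 19698 genes. The list of basement membrane genes and receptors has its median at 0.34, and those of the other lists and of the members are within 0.05 of 0.

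Marker lists of other cells were read beside these genes. The smooth muscle list lay between −0.83 and −0.13 log2 units in the irradiated arrays and between −0.22 and 0.22 in controls, relative to the control mean, with 8 of its 10 genes lowest in irradiated array 1. All 10 of its genes had a lower mean in irradiated lung, where 48.1% of all genes did, and 0 passed the adjusted threshold in limma, with 4 lower at an unadjusted p under 0.05, beside 4.98% of all genes. The median log2 difference was −0.44, and −0.33 without irradiated array 1. Its brightest genes were Tagln and Acta2, which encode transgelin and smooth muscle actin. The fibroblast list lay between −0.17 and 0.42 in irradiated arrays and −0.19 and 0.27 in controls, and its genes were divided, with 7 of 10 means higher and 3 lower. In it Fn1, which encodes fibronectin, passed the threshold, as did 0.416% of all genes. Its log2 difference was 0.90 (limma adjusted p = 0.0326), and it was not followed under the alternatives. All irradiated arrays were above all controls for Fn1, as for 3.4% of all genes. Col1a2, the other of the 2 brightest genes of this list, had a difference of 0.30 (adjusted p = 0.727), and its groups overlapped. The Schwann cell and nerve list lay between −0.24 and 0.27 against −0.090 and 0.17. The type I alveolar list, a mean of 5 genes, lay between 0.17 and 0.39 against −0.18 and 0.10, without overlap. All 5 had a higher mean in irradiated lung, and 0 passed the adjusted threshold in limma. Taken alone, 1 of the 5 had all irradiated arrays above all controls, beside 3.4% of all genes. The part of these cells in the differences of Utrn, Dmd, Sgca, Dag1 and the basement membrane genes was not tested.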

How the data were processed

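For each of 9 one-color Agilent 44K arrays, the authors deposited the Feature Extraction output as intensity values, not normalized between arrays, and a table of quantile-normalized intensity values. RNA had been pooled from triplicates and amplified. The processed signal, already background-corrected, was used. Outlier and control spots were left out, a probe was kept if at least 4 of 9 arrays read it over 1.4 times its local background (39302 of 39429), and log2 values were quantile normalized and averaged per probe. Spots were numbered from their scan position, since the spot numbers in the array files did not match the table. Probes were named through accessions in a RefSeq table of GRCm38.p6 (26055 probes), which was used for names and start-site sequences. Groups were compared by limma 3.58.1 (R 4.3.3), whose variance followed an intensity trend, and p-values were adjusted by Benjamini-Hochberg across the 39302 probes, with 0.05 as the threshold. The code was tested on simulated data. For a gene with several probes, the brightest was used. An exact two-sided permutation test of 126 splits described single genes. Precision is limited by the number of arrays.

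The members, gene lists and tests were chosen with earlier results of these data known. Named were the 8 members, the 3 genes of each pathway list with the largest difference among those well above background on all 9 arrays, the 3 nearest profiles of the 3 widest members, and the 2 brightest genes of a marker list under discussion. Some items named by this rule are not reported here. The alternatives were normexp with an offset of 50, 75th percentile scaling, other background filters, the authors' table, no intensity trend, array weights, each array left out, a replicate block, the mean of all probes, scan pairs, scan position, background outliers left out and the later accession version. The last 4 were chosen after seeing the data.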

Additional observations from a re-analysis of the deposited data

Results flagged for a closer look

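Of 50 groups of 4 or 5 values examined, 4 had 1 array far from the others by Dixon's criterion, and chance gives about 5%. Among the control arrays, the Sgcb probe A_55_P2182867 read 10.25 in control array 2, below the other 3. Among the irradiated arrays, the brightest Lama2 probe read 12.72 in irradiated array 5, above the other 4. The mean of the cardiac muscle list lay −4.89 log2 units from the control mean in irradiated array 1, the array with the lowest Sgca value. The mean of the skeletal muscle list lay 3.50 above the control mean in control array 3.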

How the results depend on the processing

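In limma, 0 of the 8 members passed the threshold under all 22 alternatives. The sign of Dmd, Dag1, Sgca, Sgcb, Lama2 and Utrn was the same in all 22. The difference of Sgcd became −0.047 under 75th percentile scaling, which moved the median of all probes to −0.074, and that of Sgce ranged from −0.22 to 0.0023 over arrays left out. The difference of Sgca ranged from −0.98 without irradiated array 3 to −0.42 without irradiated array 1, and that of Utrn from −0.48 without control array 1 to −0.24 without control array 2. The probes called among all kept, 131, became 197 with the filter on all 9 arrays, 44 with the authors' table, 44 without an intensity trend, 205 with array weights, 1099 with scan pairs as a block, which also leaves out irradiated array 1, and 4 with scan position as a block, and 5 to 483 with each array left out, the highest without irradiated array 1 and the lowest without control array 3. The genes called among the 59 of the pathway lists, 0, became 1 with the filter on all 9 arrays, 2 with array weights and 2 with the mean of all probes (Dysf among them in both), 3 with scan pairs (Dysf and Lama1 among them), and 0 to 1 with each array left out, the 1 being Dysf without irradiated array 1. The causes were not tested. Arrays of both groups share replicate numbers 1 to 4, and the labels do not say whether these numbers pair them. Deviations of same-numbered arrays from their group means had correlations of 0.12, −0.027, −0.0044 and −0.21. These values cannot show how the pools were collected or handled, so a pairing is not settled. With a replicate block, which also leaves out irradiated array 5, 1 probe, 0 members and 0 of the 59 genes passed, against 24 probes without that array and with no block. Arrays were too few to bound small differences: the 95% interval of Dag1 reached a ratio of 1.48 and that of Sgca 0.326.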
